A study of Mus musculus with 4 samples.

Results

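The cytosolic heat shock genes are those of the molecular chaperones that hold and refold proteins in the cytosol and nucleus. Of 10 such genes chosen by symbol, all 10 had an entry among the 14519 genes of the deposited table, and all 10 passed the filter on low values. They were the Hsp70 genes Hspa1a, Hspa1b and Hspa8, the Hsp110 genes Hspa4 and Hsph1, the Hsp90 genes Hsp90aa1 and Hsp90ab1, the Hsp40 genes Dnajb1 and Dnaja1, and the small heat shock gene Hspb1. They were compared between Reg4+ deep crypt secretory (DCS) cells, mucus-making cells of the colonic crypt base sorted by a Reg4-dsRed reporter, and Lgr5+ stem cells sorted by an Lgr5-GFP reporter, both from mouse colonic epithelium. The study used 4 libraries made by CEL-seq, which reads the 3′ ends of transcripts, 2 per population from 2 rounds of sorting. The labels do not say that the replicate number marks a round shared by the populations. The sources used here give no strain background, age or number of animals, and neither population carried a treatment per the labels. Values are RPM, a gene's reads per 1000000 reads of the library. The worth of 1 read could be read off the values, which put the Lgr5+ libraries at 5205723 and 7955340 reads. The Reg4+ DCS columns were averages over 2 scaled parts holding 1890960 to 5523304 reads each. Below, these cells are called DCS cells.

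Hsp70 proteins bind unfolded stretches of other proteins and release them in a cycle driven by ATP. Hsp40 proteins deliver clients and stimulate the ATPase, Hsp110 proteins exchange the nucleotide, and Hsp90 proteins mature kinases, steroid receptors and other clients. Some of these genes, such as Hspa8 and Hsp90ab1, are transcribed in nearly all cells, while others, such as Hspa1a and Hspa1b, are known for their rapid induction by heat shock factor 1 when proteins unfold. Handling of tissue and cells is known to induce several of them, together with immediate early genes.

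Heat shock factors bind inverted repeats of the unit GAA, and the stretches upstream of Hspa1a, Hspa1b and Hspb1 are shown because these were the members with the largest differences between the DCS replicates. Promoters from RefSeq (GRCm38.p6) were matched for 7 of the 10 genes by symbol (Hspa1a, Hspa1b, Hspa4, Hsph1, Dnajb1, Dnaja1 and Hspb1), and the 250 bases before each transcription start were searched. The motifs were GAANNTTC and TTCNNGAA, 2 units facing each other or apart. Each reads the same on both strands, and the motifs can overlap. Capitals mark each match.
Hspa1a, chr17:34972157-34972406, minus strand: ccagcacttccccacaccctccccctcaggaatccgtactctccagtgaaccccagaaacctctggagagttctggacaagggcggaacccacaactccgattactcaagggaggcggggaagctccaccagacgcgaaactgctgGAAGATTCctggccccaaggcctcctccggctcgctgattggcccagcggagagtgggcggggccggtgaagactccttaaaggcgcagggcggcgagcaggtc
Hspa1b, chr17:34959239-34959488, minus strand: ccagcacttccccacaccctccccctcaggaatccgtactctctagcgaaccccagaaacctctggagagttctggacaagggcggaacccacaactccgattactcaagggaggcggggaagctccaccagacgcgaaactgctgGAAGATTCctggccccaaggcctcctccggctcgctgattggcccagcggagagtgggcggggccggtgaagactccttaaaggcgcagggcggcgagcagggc
Hspb1, chr5:135887669-135887918, plus strand: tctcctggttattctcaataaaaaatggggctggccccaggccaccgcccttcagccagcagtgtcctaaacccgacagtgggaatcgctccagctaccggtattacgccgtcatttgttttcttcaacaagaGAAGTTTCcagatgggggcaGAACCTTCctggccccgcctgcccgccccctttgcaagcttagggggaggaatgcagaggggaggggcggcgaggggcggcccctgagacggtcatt
Hspa1a and Hspa1b differed at 3 of these 250 bases, and both held 1 match, which began 104 bases before the start. Hspb1 held 2 matches, which began 117 and 97 bases before its start. Of the 7 genes, 5 held a match before at least 1 annotated start. Of all 32851 promoters of this length, each counted singly, 12.8% did. These counts are unlike, since genes with several starts had several chances to match. Dnaja1 held a match before 1 annotated start but not before its others. Hspa1a and Hspa1b, nearly the same sequence, were also counted separately. Dnajb1 and Hspa4 held no match in this window. The longer run GAANNTTCNNGAA or TTCNNGAANNTTC, which together cover both strands, was found upstream of 0 of the 7 genes and of 0.466% of all promoters. A match describes the letters only.

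The sort followed the labels. Reg4 stood at 6187 and 5899 RPM in DCS cells and at 796 and 363 RPM in Lgr5+ cells, and Lgr5 at 0.989 and 3.13 against 46.5 and 48.8 RPM. As these genes drove the reporters, they check the labels only. All 8 epithelial markers passed the filter, with Epcam between 701 and 1112 RPM in every library. Over the 10183 genes tested, the median log2 fold change (DCS minus Lgr5+, in log2(RPM + 1)) was −0.47, and median-of-ratios scaling moved it to 0.02. Differences between the populations are therefore read against that shift. In bulk libraries fewer cells of a type and less RNA per cell cannot be told apart.

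The genes of the steady-state chaperones Hsp90ab1 and Hspa8 made up most of the signal. On the RPM scale they were called lower in DCS cells, and under median-of-ratios scaling they kept that direction but did not pass the test. Together they gave 71.9% and 54.1% of the summed RPM of the 10 genes in the DCS libraries and 75.5% and 84.6% in the Lgr5+ libraries. CEL-seq reads transcript ends, so RPM levels do not scale with transcript length, but part of the Hspa8 level may come from copies that share its transcript end. Of the 10 genes, 2 were called higher in Lgr5+ cells by limma (adjusted p under 0.05), and 0 were called higher in DCS cells. At an unadjusted p under 0.05 these counts were 3 and 1, against 37.8% and 9.43% of all genes tested. Over all genes tested, 34.1% were called, 26.9% (2744 genes) higher in Lgr5+ and 7.18% (731 genes) higher in DCS cells, or 1297 and 1591 genes under median-of-ratios scaling. The edgeR fit on the recovered reads also rescaled the libraries, and the median log2 fold change of all genes tested was −0.03. With it the 10 genes gave 0 calls toward Lgr5+ and 2 toward DCS cells. With all libraries the median log2 fold change of the 10 genes was −0.45, and that of all genes tested −0.47, or 0.06 and 0.02 under median-of-ratios scaling. Without DCS replicate 1 these medians were 0.30 and −0.35, and without DCS replicate 2 −1.02 and −0.61. Without Lgr5+ replicate 1 they were 0.07 and −0.38, and without Lgr5+ replicate 2 −0.70 and −0.44. A fit without 1 library leaves 1 population with 1 library. Calls and adjusted p from such fits, here and below, are therefore descriptive only.

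**Figure D1:**
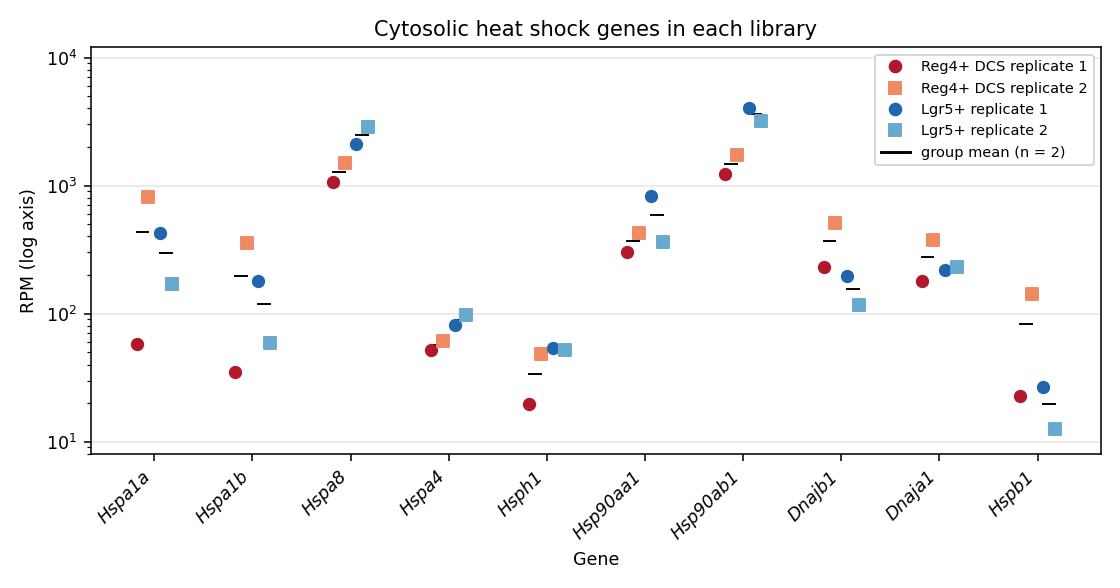
RPM of the 10 cytosolic heat shock genes in each library, on a log axis, with circles for replicate 1, squares for replicate 2 and bars for the mean of each population (n = 2). Reg4+ DCS replicate 2 lies above replicate 1 for all 10 genes, from 61.1 against 51.6 RPM for Hspa4 to 807 against 58.1 RPM for Hspa1a.

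Hsp90ab1 encodes the constitutive Hsp90 (mm10 chromosome 17, 45567775 to 45573271, minus strand). It stood at 1233 and 1733 RPM in DCS replicates 1 and 2 and at 4046 and 3199.6 RPM in Lgr5+ replicates 1 and 2. Both DCS libraries lay below both Lgr5+ libraries. The means were 1483 ± 354 and 3623 ± 599 RPM (SD, n = 2 each), 2.44-fold higher in Lgr5+ cells (log2 fold change −1.30, SE 0.29, limma adjusted p = 0.0121). It did not pass with median-of-ratios scaling (adjusted p = 0.0859), with edgeR on the recovered reads (0.0779) or without DCS replicate 1 (0.156). Over all alternatives the limma and edgeR adjusted p ranged from 2.28e-05 to 0.156, and the direction held in each.

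Hsp90aa1 encodes the stress-responsive Hsp90 (chromosome 12, 110690605 to 110702728, minus strand). It stood at 303 and 429 RPM in the DCS libraries, against 822 and 364 RPM in Lgr5+ replicates 1 and 2, so that the groups overlapped (log2 fold change −0.60, SE 0.38, limma adjusted p = 0.246). Its spread lay in Lgr5+ cells, where replicate 1 was 2.26-fold above replicate 2. Its log2 fold change was −1.19 without Lgr5+ replicate 2 and −0.01 without Lgr5+ replicate 1. The ratio of Hsp90aa1 to Hsp90ab1 was 0.246 and 0.248 in the DCS libraries and 0.203 and 0.114 in the Lgr5+ libraries. Both DCS ratios were thus above both Lgr5+ ratios, a difference that was not tested.

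Hspa8 encodes Hsc70, the constitutive Hsp70 that also strips clathrin from vesicles (chromosome 9, 40800984 to 40810087, plus strand). It stood at 1074 and 1488 RPM in DCS and 2119 and 2876 RPM in Lgr5+ libraries, without overlap. The means were 1281 ± 293 and 2498 ± 535 RPM, 1.95-fold higher in Lgr5+ cells (log2 fold change −0.96, SE 0.29, limma adjusted p = 0.0354). The adjusted p ranged from 0.000530 to 0.306 over the alternatives. Hspa8 did not pass with median-of-ratios scaling (0.306), with edgeR (0.202), with no filter on low values (0.0790), or without DCS replicate 1 (0.275), DCS replicate 2 (0.0801) or Lgr5+ replicate 2 (0.0885). The value of Hspa8 is also uncertain because 81.8% of the 50-base windows in the last 500 bases of its transcript occur in transcripts of 11 other annotated genes, most often Gm15459. For Hspb1 and Hsp90ab1 72 and 35 of 451 such windows were shared, and for the other seven none. The sources used here do not say how reads of such copies were assigned.

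Hspa1a (chromosome 17, 34969190 to 34972156) and Hspa1b (34956436 to 34959238), neighbours on the minus strand, encode near-identical stress-induced Hsp70 proteins. Both genes differed more between the replicates of either population than between the population means. With 2 libraries per population and this spread, a difference between the populations is not excluded. Hspa1a stood at 58.1 and 807 RPM in DCS replicates 1 and 2 and at 428 and 169 RPM in Lgr5+ replicates 1 and 2. Hspa1b stood at 34.9 and 358 RPM and at 179 and 58.6 RPM. For both genes, the DCS libraries held both the lowest and the highest value of the series, with the Lgr5+ libraries between them. By mean RPM, Hspa1a was 1.45-fold and Hspa1b 1.66-fold higher in DCS cells. The log2 fold changes between the populations, which average the replicates as logs, were −0.31 (SE 1.02, limma adjusted p = 0.833) for Hspa1a and 0.13 (SE 0.94, adjusted p = 0.921) for Hspa1b. Their signs turned when 1 library was left out, as did that of Hspa1a under median-of-ratios scaling (0.20) and with edgeR (0.89). Hspa1a ran from −2.19 without DCS replicate 2 to 1.58 without replicate 1, and Hspa1b from −1.53 to 1.80 over the same libraries.

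The ratio of Hspa1a to Hspa1b was 1.66 and 2.25 in the DCS libraries and 2.40 and 2.89 in the Lgr5+ libraries. The genes share 58.8% of the 50-base windows of the Hspa1a transcript, but 0 of the 451 windows in its last 500 bases. Reads from the transcript end can thus be told apart, while reads further inside may be split between the copies in an unknown way. Their sum relative to Hspa8 was 0.0866 and 0.783 in the DCS libraries and 0.287 and 0.0791 in the Lgr5+ libraries. DCS replicate 1 and Lgr5+ replicate 2 had the lowest ratios, and DCS replicate 2 had the highest.

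Hspa4 and Hsph1 encode Hsp110 proteins that reset Hsp70. Hspa4 (chromosome 11, 53259814 to 53300457) stood at 51.6 and 61.1 RPM in DCS and 80.9 and 98.0 RPM in Lgr5+ libraries (log2 fold change −0.66, SE 0.24, limma adjusted p = 0.0650). Its groups did not overlap, and it was the member with the smallest difference between the DCS replicates. Hsph1 (chromosome 5, 149614287 to 149636376) stood at 19.7 and 48.3 RPM in DCS and 53.8 and 51.5 RPM in Lgr5+ libraries (−0.75, SE 0.39, adjusted p = 0.167). DCS replicate 2 thus lay close to the Lgr5+ libraries, and without it the log2 fold change of Hsph1 was −1.38. Across the 10 genes, 4 had both DCS libraries below both Lgr5+ libraries (Hsp90ab1, Hspa8, Hspa4 and Hsph1), as had 56.2% of all genes tested. The 1 gene with both above was Dnajb1, against 16.1% of all genes tested. The groups overlapped in 5 of the 10 genes, and did not overlap in 72.3% of all genes tested.

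Dnajb1 (chromosome 8, 83608193 to 83612653), the stress-induced Hsp40 that partners Hspa1a, stood at 229 and 512 RPM in DCS and 195 and 116 RPM in Lgr5+ libraries. The means differed 2.38-fold (log2 fold change 1.18, SE 0.40), just short of the threshold (limma adjusted p = 0.0525). Median-of-ratios scaling (limma adjusted p = 0.00808) and edgeR (0.0237) called it higher in DCS cells. Its log2 fold change was 1.76 without DCS replicate 1 and 0.60 without DCS replicate 2. It was 1.55 without Lgr5+ replicate 1 and 0.81 without Lgr5+ replicate 2. Dnaja1 (chromosome 4, 40722150 to 40737149), another Hsp40 with a broad set of clients, stood at 181 and 374 RPM in DCS and 217 and 233 RPM in Lgr5+ libraries (0.21, SE 0.33, adjusted p = 0.645). The Lgr5+ values lay between those of the DCS replicates, and the sign turned without DCS replicate 2 (−0.31).

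Hspb1 (chromosome 5, 135887919 to 135889563), a small heat shock protein that holds unfolding proteins and guards the actin skeleton, stood at 22.9 and 143 RPM in DCS and 26.9 and 12.4 RPM in Lgr5+ libraries. The mean was 4.23-fold higher in DCS cells (log2 fold change 1.60, SE 0.74), but it did not pass (limma adjusted p = 0.123), and DCS replicate 1 lay within the Lgr5+ range. Median-of-ratios scaling (2.09, limma adjusted p = 0.0489) and edgeR (0.0361) called it higher in DCS cells. Without DCS replicate 1 the log2 fold change was 2.90, and without DCS replicate 2 it was 0.30. Leaving out Lgr5+ replicate 1 or 2 gave 2.13 or 1.08. Its lowest count was 99 reads, in Lgr5+ replicate 2, which gives 10.1 to 15.2 RPM as an exact Poisson 95% interval. Such intervals treat reads as independent and leave out the spread between libraries. Copies made by amplification are not independent, so the intervals may be too narrow even for counting error.

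**Figure D2:**
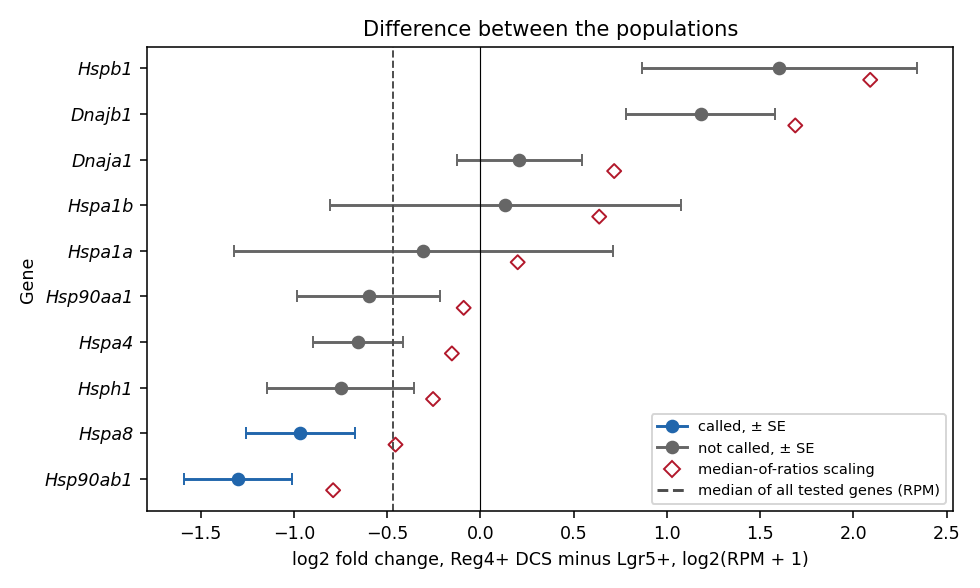
Log2 fold change of each heat shock gene between the populations (Reg4+ DCS minus Lgr5+) with its SE from limma, blue where called, and the same value under median-of-ratios scaling as open diamonds. The genes run from −1.30 for Hsp90ab1 to 1.60 for Hspb1, the SE is widest for Hspa1a (1.02), and the dashed line marks the median of all genes tested (−0.47).

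The difference between the DCS replicates was a pattern of its own. Replicate 2 was above replicate 1 for all 10 genes, as it was for 73.6% of all genes tested, and the median difference was 1.10 on the log2 scale for the 10 genes and 0.23 for all genes tested. In 6 of the 10 genes replicate 2 was at least 2-fold above replicate 1, against 6.29% of all genes tested. These were Hspa1a (13.9-fold), Hspa1b (10.3-fold), Hspb1 (6.26-fold), Hsph1 (2.45-fold), Dnajb1 (2.23-fold) and Dnaja1 (2.06-fold). Hspa1a, Hspa1b and Hspb1 ranked 2, 3 and 5 of 10183 genes by this difference. The other four, Hsp90ab1, Hsp90aa1, Hspa8 and Hspa4, differed by 1.18 to 1.41-fold. This compares 2 libraries of 1 population, so there is no replicate check of it.

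**Figure D3:**
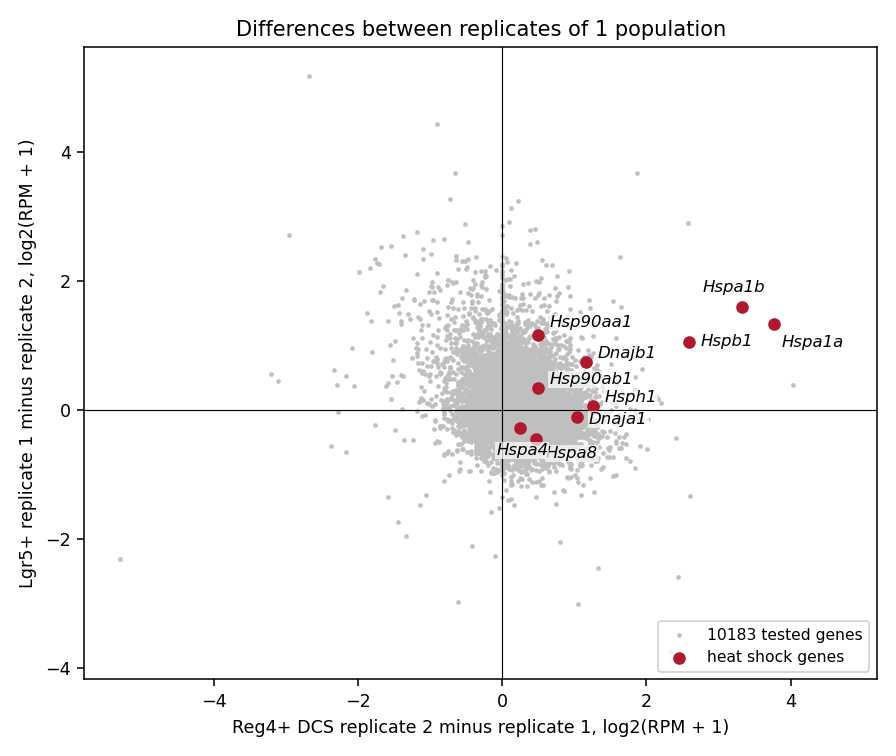
Difference between the replicates of each population in log2(RPM + 1), Reg4+ DCS replicate 2 minus 1 on the horizontal axis and Lgr5+ replicate 1 minus 2 on the vertical axis, for 10183 tested genes (grey) and the heat shock genes (red). Hspa1a, Hspa1b and Hspb1 lie apart from nearly all genes, at 3.77, 3.32 and 2.59 on the horizontal axis.

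For Hspa1a, Hspa1b and Hspb1 the parts of each DCS column showed the same difference. Of the 10 genes, 8 could be decoded into reads of each part, and Hsp90ab1 and Hspa8 could not in replicate 2. Hspa1a had 274 and 126 reads in the larger and smaller part of replicate 1, or 49.6 RPM (exact Poisson 95% interval 43.9 to 55.8) and 66.6 RPM (55.5 to 79.3). It had 2421 and 1975 reads in the parts of replicate 2, or 806 RPM (774 to 839) and 808 RPM (773 to 845). Both parts of replicate 2 were thus far above both parts of replicate 1. The fold between any part of replicate 2 and any part of replicate 1 was 12.1 to 16.3 for Hspa1a, 9.14 to 11.4 for Hspa1b and 4.86 to 8.23 for Hspb1. All 8 decoded genes had both parts of replicate 2 above both parts of replicate 1, as had 39.7% of all tested genes that could be decoded. For Hspa4 the lowest such fold was 1.01, and the counting intervals of its parts overlapped (52.6 to 65.6 RPM in the larger part of replicate 1 and 51.2 to 69.0 RPM in that of replicate 2). The parts of replicate 1 differed from each other by 1.97-fold for Hsp90ab1 (1634 and 831 RPM) and 1.71-fold for Hsp90aa1, more than the replicates did in either gene (1.41-fold). The sources used here do not say what the parts were (cells, libraries or sequencing runs), so they were not counted as replicates.

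**Figure D4:**
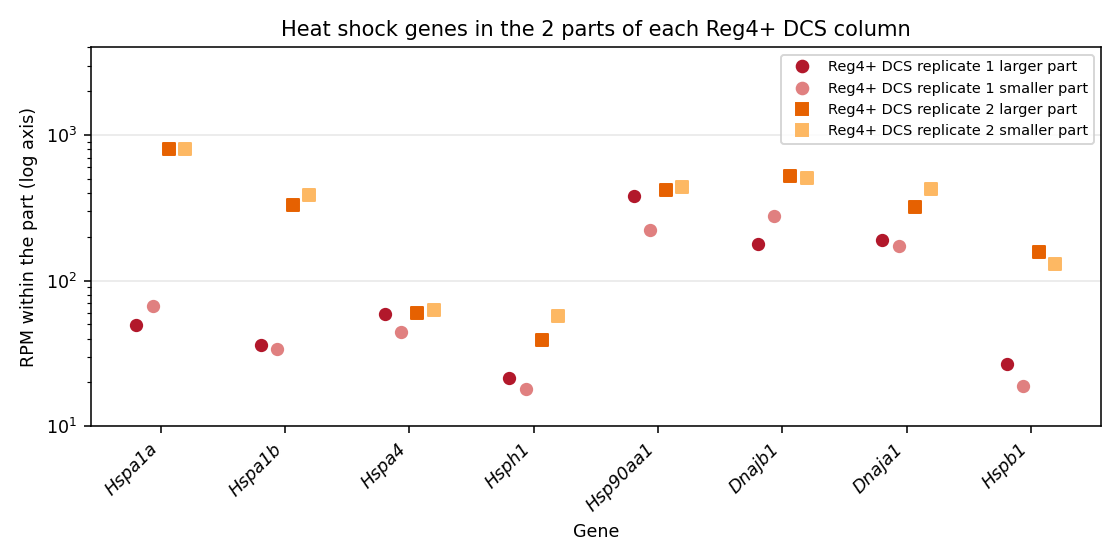
RPM within each of the 2 parts that make up a Reg4+ DCS column, on a log axis, for the 8 heat shock genes whose reads could be decoded, with circles for replicate 1 and squares for replicate 2. For Hspa1a the parts of replicate 1 lie at 49.6 and 66.6 RPM and those of replicate 2 at 806 and 808 RPM.

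The Lgr5+ replicates differed in part of the same genes, with replicate 1 the higher. In 4 of the 10 genes replicate 1 was at least 2-fold above replicate 2, against 6.32% of all genes tested: Hspa1b (3.05-fold), Hspa1a (2.53-fold), Hsp90aa1 (2.26-fold) and Hspb1 (2.16-fold). Replicate 1 was higher for 7 of 10 genes and for 53% of all genes tested. Hspa8, Hspa4 and Dnaja1 were the exceptions, at 1.36-fold, 1.21-fold and 1.07-fold higher in replicate 2.

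Markers of other cells and of cell stress are given for the same libraries, and their part in these differences was not tested. Between DCS replicates 1 and 2 the summed RPM of 7 goblet cell markers was 75378 and 72013, and that of 7 tuft cell markers 3.72 and 4.34. The sum of 6 stem cell markers was 41.4 and 74.8 RPM, and that of 7 absorptive cell markers 428 and 543 RPM. Of these, Guca2a was higher in replicate 2 (339 and 505 RPM), while the other six were lower. Leukocyte markers, of which 7 of 12 had an entry, summed to 1.71 and 1.37 RPM, with Ptprc, Cd3e, Cd79a and Coro1a at 0 in both DCS libraries. Each DCS column held 12874 genes above 0, against 14209 and 14211 in the Lgr5+ columns. The sources used here do not explain this equal count. A 0 in both DCS libraries may therefore not be 2 separate measurements. Enteroendocrine markers, 6 of 7 with an entry, summed to 17.8 and 25.9 RPM, and stromal markers, 4 of 10 with an entry, to 2.76 and 2.47 RPM. Between Lgr5+ replicates 1 and 2 the goblet sum was 3458 and 1909 RPM and the stem cell sum 612 and 751 RPM. The tuft sum was 1058 and 321 RPM, the absorptive sum 963 and 199 RPM, the enteroendocrine sum 71.5 and 35.1 RPM, the stromal sum 8.07 and 4.15 RPM, and the leukocyte sum 48.8 and 15.5 RPM. The 16 immediate early genes, transcription factors and regulators switched on within minutes of a stimulus, summed to 19930 and 23249 RPM in DCS and 14092 and 9404 RPM in Lgr5+ libraries. Of these 16 genes, 8 were called higher in DCS cells and 0 higher in Lgr5+ cells (14 and 0 under median-of-ratios scaling). Over all 10183 genes tested, 731 (7.18%) and 2744 (26.9%) were called in these directions, or 1591 and 1297 under that scaling. When 1 library was left out, the median log2 fold change of the 16 genes ranged from 0.65 to 1.03. Of the 16, Junb (515 and 1075 RPM) and Nr4a1 (458 and 937 RPM) were at least 2-fold higher in DCS replicate 2.

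Calls among the other cytosolic chaperones went mostly toward Lgr5+ cells on the RPM scale, and most of those calls did not hold under median-of-ratios scaling. Calls over all genes tested also went mostly that way, with 26.9% of genes higher in Lgr5+ and 7.18% higher in DCS cells. Of 13 tested genes of the TRiC chaperonin, which folds actin and tubulin, and of prefoldin, which delivers them, 10 were called higher in Lgr5+ cells and 0 higher in DCS cells. Under median-of-ratios scaling 1 was called higher in Lgr5+ cells, and the median of the 13 genes went from −0.93 to −0.42. Cct6a, a TRiC subunit, stood at 64.5 and 58.1 RPM against 156 and 144 RPM (log2 fold change −1.27, SE 0.22, limma adjusted p = 0.00426, and 0.0359 under median-of-ratios scaling). Cct5 (−1.16) and Cct8 (−1.07), also subunits, were called on the RPM scale but not under that scaling (adjusted p = 0.0620 and 0.0733), and Cct8 was also called by edgeR (0.0452). Without DCS replicate 1 the count toward Lgr5+ cells was 1, and without Lgr5+ replicate 2 it was 4.

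Of 19 tested Hsp90 co-chaperones, 10 were called higher in Lgr5+ and 0 higher in DCS cells, or 2 and 0 under median-of-ratios scaling. The first count was 1 without DCS replicate 1, 4 without DCS replicate 2 and 3 without Lgr5+ replicate 2. Stip1, the adaptor that passes clients from Hsp70 to Hsp90, stood at 40.2 and 46.4 RPM against 91.2 and 115 RPM (log2 fold change −1.22, SE 0.24, limma adjusted p = 0.00749, 0.0475 under that scaling, and 0.0538 without DCS replicate 1). Aarsd1 (−1.56, adjusted p = 0.00559) also passed under that scaling (0.0162). Fkbp5, an immunophilin of steroid receptor complexes, stood at 4.48 and 3.75 against 17.9 and 7.29 RPM. It passed the filter through the Lgr5+ libraries alone, and without it 9 of 18 were called toward Lgr5+ cells. Of 9 Hsp70 co-chaperones, 3 were called higher in Lgr5+ cells (Bag4, Hspbp1 and St13) and 1 higher in DCS cells. That 1 was Bag1, a nucleotide exchange factor of Hsp70, at 346 and 360 RPM against 146 and 206 RPM (1.02, SE 0.24, adjusted p = 0.0154), which passed without Lgr5+ replicate 2 but not without any other library (0.0683 to 0.0800). The count of 3 was 1 without DCS replicate 1 and 1 without Lgr5+ replicate 2. Under median-of-ratios scaling 2 of the 9 were higher in DCS and 0 in Lgr5+ cells. On the RPM scale the share of 3 in 9 was near the 26.9% of all genes tested.

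Other cytosolic Hsp70, Hsp40 and small heat shock genes gave 5 of 15 tested higher in Lgr5+ cells and 1 higher in DCS cells, or 1 and 3 under median-of-ratios scaling. Among those toward Lgr5+ cells were Dnajc2, a ribosome-bound Hsp40 (−1.27), and Dnajc9, a histone-binding Hsp40 (−1.13). Dnaja4, the 1 gene higher in DCS cells, stood at 8.21 and 26.4 RPM against 2.69 and 2.51 RPM, and Dnajb5 at 2.15 and 2.88 against 5.38 and 8.67 RPM. Both passed the filter only through the libraries in which they were high, so that they had to differ, and without them 4 of 13 were called toward Lgr5+ and 0 toward DCS cells. The shares of 5 in 15 and 4 in 13 were near the 26.9% of all genes tested. Dnaja4 too was at least 2-fold higher in DCS replicate 2 than in replicate 1, the 1 gene of this list to be so, and it fell below the filter when a DCS library was left out. Without DCS replicate 1 none of the list was called. Without Lgr5+ replicate 1 or 2, 2 were called toward Lgr5+ cells.

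Hsf1, the factor that drives the heat shock response, stood at 15.4 and 25.7 RPM in DCS and 53.4 and 48.3 RPM in Lgr5+ libraries (log2 fold change −1.31, SE 0.30, limma adjusted p = 0.0140, and 0.0416 under median-of-ratios scaling). It did not pass without DCS replicate 1 (0.0754). Hsf2, a related factor, stood at 1.25 and 2.73 against 7.49 and 6.29 RPM, and it passed the filter through the Lgr5+ libraries alone. Of 11 other stress-induced genes, 2 were called in each direction, or 6 higher in DCS and 2 higher in Lgr5+ cells under that scaling. Over all 10183 genes tested, 731 were called higher in DCS and 2744 higher in Lgr5+ cells, or 1591 and 1297 under that scaling. Mt2 and Mt1, metal-binding metallothioneins, were higher in Lgr5+ cells by log2 fold changes of −3.34 and −1.98 (limma adjusted p = 0.000280 and 0.000680). Gadd45g, a growth arrest gene, was 4.40-fold higher in DCS cells. Dedd2 was 1.72-fold higher there, and it did not pass without any 1 library (adjusted p = 0.0862 to 0.133). None of these 11 genes was at least 2-fold higher in DCS replicate 2 than in replicate 1.

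Calls among the endoplasmic reticulum counterparts went toward DCS cells. Of 10 endoplasmic reticulum chaperones, 8 were called higher in DCS and 0 higher in Lgr5+ cells, or 10 and 0 under median-of-ratios scaling. Of all 10183 genes tested, 731 (7.18%) were called higher in DCS and 2744 (26.9%) higher in Lgr5+ cells, or 1591 and 1297 under that scaling. The median log2 fold change of the list was 1.31, and 1.11 without DCS replicate 1. Hspa5 (BiP), the Hsp70 of the endoplasmic reticulum, stood at 1131 and 1161 RPM against 406 and 367 RPM (log2 fold change 1.57, SE 0.22, limma adjusted p = 0.00183). Hsp90b1, its Hsp90, stood at 338 and 360 RPM against 228 and 217 RPM (0.65, SE 0.21, adjusted p = 0.0470), a call that did not hold without any 1 library (0.116 to 0.157). Dnajc10 (1.87) and Dnajc3 (1.73), Hsp40 proteins of this compartment, had the largest fold changes of the list. The DCS replicates differed little in Hspa5, and 0 of the 10 genes were at least 2-fold higher in replicate 2. Sdf2l1 was lower in replicate 2 (134 and 63.4 RPM in replicates 1 and 2). The median log2 difference, replicate 2 minus 1, was −0.28 for the list and 0.23 for all genes tested.

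Of 12 mitochondrial chaperones and proteases, 4 were called higher in Lgr5+ cells and 0 higher in DCS cells, or 1 and 0 under median-of-ratios scaling. The share of 4 in 12 was near the 26.9% of all genes tested, and the median of the list was −0.60 against −0.47. Without DCS replicate 1 the first count was 1, and without Lgr5+ replicate 2 it was 2. Hspd1 (Hsp60), the mitochondrial chaperonin, stood at 100 and 160.0 RPM against 365 and 398 RPM (log2 fold change −1.58, SE 0.27, limma adjusted p = 0.00393, and 0.0109 under that scaling). Hspa9, the mitochondrial Hsp70 (−0.80, adjusted p = 0.0312), Trap1, the mitochondrial Hsp90 (−1.03, 0.0119), and Lonp1, a protease (−1.13, 0.0138), were called on the RPM scale but not under that scaling (0.342, 0.151 and 0.0718). Hspe1, the partner of Hspd1, did not pass on RPM (−0.85, adjusted p = 0.0568). Of the main Hsp70 genes of the 3 compartments, Hspa8 and Hspa9 thus had lower RPM and Hspa5 higher RPM in both DCS libraries than in both Lgr5+ libraries. Of all genes tested, 56.2% were lower and 16.1% higher in this way. Under median-of-ratios scaling Hspa8, like Hspa9, was not called (limma adjusted p = 0.306), while Hspa5 was (0.000655).

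**Figure D5:**
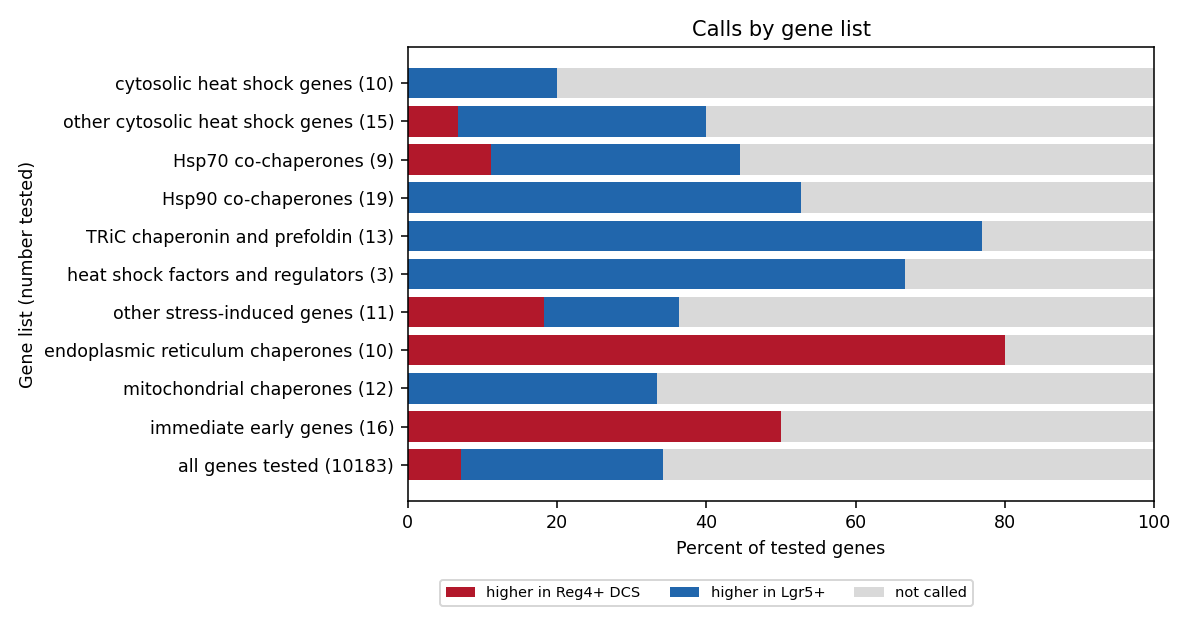
Percent of tested genes called higher in Reg4+ DCS cells (red), called higher in Lgr5+ cells (blue) or not called (grey) by limma on the RPM scale, for the cytosolic heat shock genes, the other gene lists and all genes tested. The 10 cytosolic heat shock genes had 2 calls, both toward Lgr5+ cells, while 8 of 10 endoplasmic reticulum chaperones were called toward Reg4+ DCS cells.

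Genes outside the lists with the most similar pattern over the 4 libraries were found by the root mean square difference of centred log2(RPM + 1) among 10019 tested genes. For Hspa8 these were Rps9, a ribosomal protein gene (0.0248), Zfp329 (0.0286) and Map2k5 (0.0333), so its profile had close matches. Rps9 stood at 1667 and 2402 RPM in DCS and 3377 and 4664 RPM in Lgr5+ libraries. For the sum of Hspa1a and Hspa1b the nearest genes were Zfp773 (0.496), Gm8580 (0.650) and 1600016N20Rik (0.744), a far looser likeness. Zfp773 stood at 3.03 and 65.0 RPM in DCS replicates 1 and 2, against 12.7 and 9.43 RPM in Lgr5+ replicates 1 and 2, and had the largest difference between DCS replicates of all genes tested. With 4 libraries such likeness is a description.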

How the data were processed

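The 4 RNA libraries came from Reg4+ DCS cells (2) and Lgr5+ cells (2). Per the labels' protocols, sorted cells were lysed in Trizol and processed by CEL-seq with 50 bp paired-end reads. BWA 0.6.2-r126 and the build mm10 appear in the submitters' processing notes. The counting of genes, its annotation, molecular identifiers and filters were not given in the sources used here. The authors deposited RPM values for 14519 genes, each column summing to 1000000. Dividing by the worth of 1 read gave whole reads (within 0.01 reads) for 100% of values in each Lgr5+ column. Values of Reg4+ DCS replicates 1 and 2 were decoded as sums over 2 parts for 99.95% and 99.1% of genes, tested on simulated data.

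Differential expression was tested with limma 3.58.1 (R 4.3.3; eBayes with trend) on log2(RPM + 1), for genes with at least 5 RPM in at least 2 libraries, with Benjamini-Hochberg adjustment over 10183 genes. The log2(RPM + 1) scale understates changes of low genes, and folds are ratios of mean RPM. As an alternative chosen after seeing the data, edgeR 4.0.16 (quasi-likelihood test) was run on the recovered reads, with the parts of a column summed, and called 2756 genes. It applied its own scaling of the libraries, so it and median-of-ratios scaling are not independent alternatives to RPM. For the 7 and 129 genes of DCS replicates 1 and 2 that could not be decoded, Hspa8 and Hsp90ab1 among them in replicate 2, the RPM was multiplied by the summed depth and rounded. Other alternatives were the pseudocount, the filter, median-of-ratios scaling, no trend, the replicate number as a block, and leaving out each library. Leaving out a library left 1 population with 1 library, so the spread within that population did not enter the error of that fit. The p-values rest on 2 sorted samples per population, said to be biological replicates. Coordinates are from GENCODE M21 (GRCm38, the assembly of mm10). The 10 genes and the gene lists were chosen with earlier results of these data known. Named genes were the 10 genes, up to 3 called genes per direction and list with the largest absolute log2 fold change, the counterparts in other compartments, the 3 genes nearest in pattern, and the sort markers. Other genes were named after their values were seen (Junb, Nr4a1, Guca2a and the markers at 0).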

Additional observations from a re-analysis of the deposited data

How the results depend on the processing

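On the RPM scale 731 genes were called higher in DCS and 2744 higher in Lgr5+ cells. These counts were 1591 and 1297 under median-of-ratios scaling and 1394 and 1362 with edgeR on the recovered reads, whose 2756 calls shared 2093 genes with the limma calls. Without 1 library they ranged from 349 to 706 and from 1060 to 2288. Of the heat shock genes, 0 were called higher in DCS and 2 higher in Lgr5+ cells. The first count was 2 under median-of-ratios scaling, 2 with edgeR, 1 with a filter of 20 RPM, and 0 to 2 without 1 library. The second was 0 under median-of-ratios scaling, 0 with edgeR, 1 with no filter on low values, and 0 to 3 without 1 library. Changing the pseudocount to 0.5 or 5, or dropping the trend, left both counts as they were. With the replicate number as a block, 2 heat shock genes were called higher in DCS and 4 higher in Lgr5+ cells. The labels do not say that the number marks a shared round, and the deviations of same-numbered libraries correlated at 0.21 over all genes tested and at −0.75 over the 10 heat shock genes. The log2 fold change of Hspa1a reversed to 0.20 under median-of-ratios scaling and 0.89 with edgeR. Without 1 library it ranged from −2.19 to 1.58, that of Hspa1b from −1.53 to 1.80 and that of Dnaja1 from −0.31 to 0.73. The cause of these changes was not tested. With 2 libraries a group, the spread between DCS replicates limits what can be said of the stress-induced genes. Dnajb1 and Hspb1 were the heat shock genes called higher in DCS cells under median-of-ratios scaling.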
